A study of Rattus norvegicus with 15 samples.

Results

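The islets of rats with a near-normal average blood glucose before collection, 10 weeks after losing most of their pancreas, were compared with the islets of sham-operated rats. The members are the 3 Px (partial pancreatectomy) libraries whose titles give an average glucose of 104, 119 or 132, and the 5 Sham libraries, whose titles give 88 to 96. They are 8 of the 15 libraries of the series. The other 7 come from Px rats with a mildly raised glucose (4 libraries, 152 to 211) or severe hyperglycemia (3 libraries, 416 to 464). All libraries are polyadenylated RNA from islets of Langerhans of Lewis rats. The labels give an age of 4 to 5 weeks and do not tie it to a time in the experiment. Collection came 10 weeks after surgery, so that age cannot be the age at collection. Px rats had 90% of the pancreas removed and Sham rats had a sham procedure, with no drug or transgene named in either. Every title also carries the mark Inc_YES, which is not explained. The labels give glucose without a unit, and the range of 100 to 140 that defines the near-normal class was taken from the titles alone. Near-normal rats are named here by their glucose, in the order 104, 119 and 132 (replicates 14, 16 and 2), and Sham rats in the order of replicates 23 to 27. The title numbers differ between libraries, and each was counted as 1 rat. Should some not be separate rats, the p-values measure only the spread between these samples. The near-normal group is a model of islets in a small pancreas remnant: every rat in it had also had the resection, and no Sham rat had a glucose above 100.

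Beta cells of the islet take up and metabolise glucose, and let the resulting ATP close potassium channels, which opens calcium channels and releases insulin. Their identity is held by a set of transcription factors that switch on insulin, glucose transport and secretory genes and keep a group of widely expressed genes, called disallowed genes, at a low level. After most of a pancreas is removed, the beta cells that remain carry the whole demand for insulin, and the remnant around them is known to regenerate.

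The libraries of the near-normal and Sham groups differed in depth and in the cells they sampled. Total counts were 24.4 to 31.6 M in near-normal Px (mean 28.2 ± 3.64 M, SD, n = 3) and 12.2 to 18.4 M in Sham (14.9 ± 2.94 M, SD, n = 5). The share of counts from 28 acinar markers, genes of the enzyme-secreting cells that surround islets, was 46.1, 52.1 and 27.8% in the near-normal rats. In the Sham rats that share was 1.15, 4.88, 16.3, 2.71 and 3.69%. The difference of means was 36.3 percentage points, and the groups did not overlap. The share from 8 islet hormones was 5.38, 4.88 and 9.82% in near-normal Px and 18.4, 14.5, 11.6, 25 and 18% in Sham, a difference of −10.8 percentage points. Each of these 3 measures gave p = 0.0357 by an exact two-sided permutation test, the smallest p that 56 splits of 3 against 5 allow. Islet hormones were abundant in every library, as the tissue label says, so the libraries hold islet RNA mixed with acinar RNA. Depth, acinar share and surgery cannot be told apart by the design. A fit with an acinar score as a covariate is given below as a description, since it cannot separate the acinar share from surgery. Because the acinar share did not overlap between the groups, a gene that stops passing in that fit may have lost precision and not its change.

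**Figure D1:**
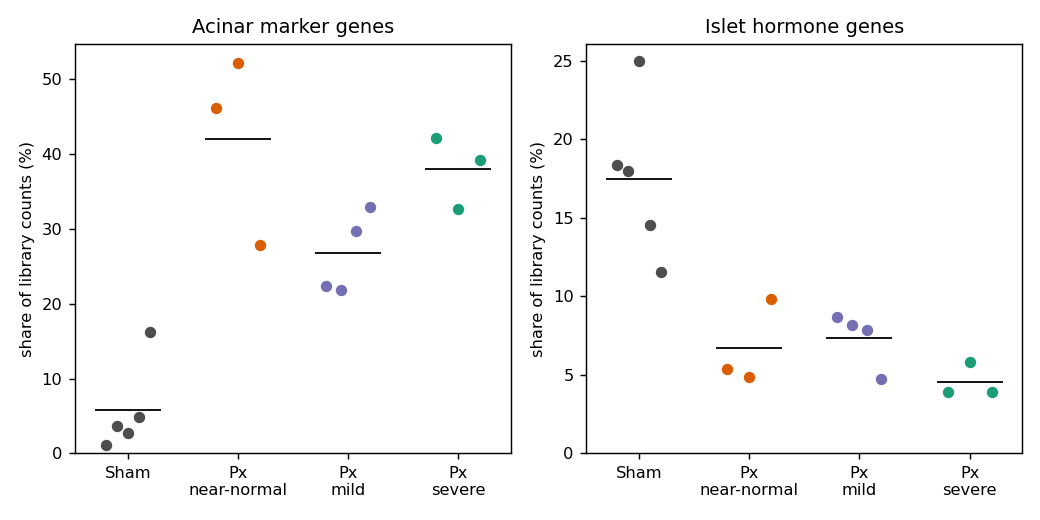
Share of each library's counts (percent, vertical axis) from acinar markers and from islet hormones, 1 point per rat with a line at each group's mean, in Sham and the near-normal, mildly raised and severe Px groups. The near-normal rats lie between 27.8 and 52.1% for acinar markers, above the Sham range of 1.15 to 16.3%, and between 4.88 and 9.82% for hormones, below the Sham range of 11.6 to 25%.

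Of 14672 genes tested with edgeR's quasi-likelihood test, 4144 (28.2%) were higher and 3819 (26%) lower in near-normal Px at a Benjamini-Hochberg adjusted p under 0.05, together 7963 genes (54.3%). These shares are the background against which each list of genes is read. In 3913 genes (26.7%) all 3 near-normal libraries lay above all 5 Sham libraries, and in 3764 genes (25.7%) all 3 lay below. The rises were larger than the falls, since 2863 of the higher genes and 726 of the lower genes changed by at least 1 on the log2 scale. The median log2 fold change of all tested genes was −0.042 with the scaling used (TMM, which sets libraries on a scale where most genes are level). It was −0.81 when libraries were scaled by their totals alone and 0.53 when 8 hormone-granule genes served as the reference. The share of calls that were higher was 52% with TMM, 20% with totals and 93.2% with the granule genes, so every direction below is a direction relative to the TMM scale. Log2 fold changes are given ± an approximate standard error, the absolute log2 fold change over the square root of the test's F statistic. Levels are CPM (counts scaled to a common library size after TMM).

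**Figure D2:**
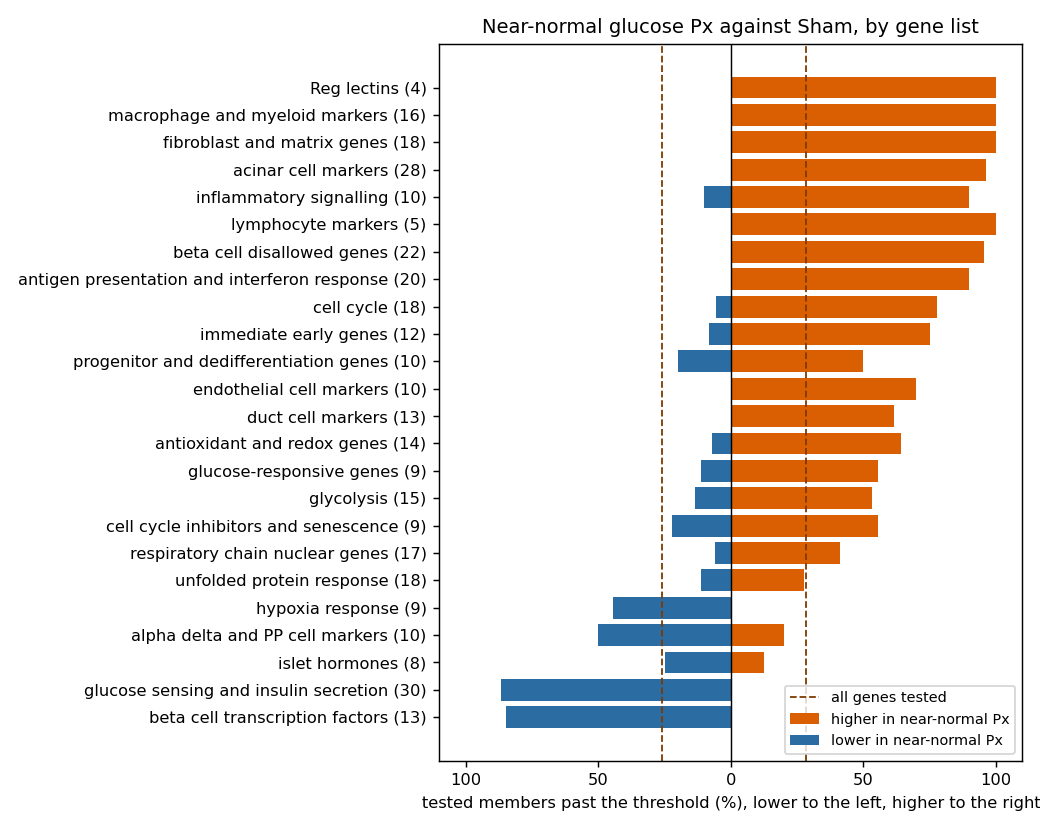
Tested members of each gene list that passed the threshold in near-normal Px against Sham, as percent of the members tested (horizontal axis, higher to the right and lower to the left, with the number tested beside each name). Dashed lines mark the 28.2% of all genes that were higher and the 26% that were lower; beta cell transcription factors and secretion genes lie on the lower side, while macrophage, fibroblast and acinar genes lie on the higher side. The hypoxia list turned to the higher side with the granule genes as the reference.

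Beta cell transcription factors were lower in near-normal Px. Of 13 tested, 11 fell, none rose, and Mnx1 and Mafa did not pass, with a list median of −1.05 against −0.042 for all genes. In all 11 the 3 near-normal libraries lay below all 5 Sham libraries. Nkx6-1, which keeps beta cells apart from other islet cells and supports insulin secretion, stood at 97, 72.1 and 71.7 CPM in the near-normal rats and at 224, 203, 209.6, 247 and 265 CPM in Sham. The highest near-normal rat was thus below the lowest Sham rat (log2 fold change −1.52 ± 0.15, adjusted p = 2.01e-05). Nkx2-2, a homeodomain factor of endocrine identity, was at 30.8, 22.2 and 16.1 CPM against 52, 46.5, 62.1, 56.4 and 69.6 CPM (−1.32 ± 0.21, adjusted p = 0.000406). Pdx1, the factor that drives pancreas formation and insulin transcription, was at 24.8, 17.1 and 23.9 CPM against 37.4, 38.4, 35.2, 40.8 and 39.3 CPM, again with no overlap (−0.80 ± 0.13, adjusted p = 0.000529). Isl1 (−1.06 ± 0.13, adjusted p = 6.48e-05) and Neurod1 (−0.80 ± 0.14, adjusted p = 0.000742), further factors that act on the insulin genes, fell too. Mafa, an insulin gene activator of mature beta cells, was at 61.2, 23.9 and 36.3 CPM against 60, 38.8, 63.4, 103 and 105 CPM, where the rat at 104 lay inside the Sham range (−0.87 ± 0.36, adjusted p = 0.0653). DESeq2 called Mafa lower (adjusted p = 0.0238), as did the fit of all 15 libraries (adjusted p = 0.0486). Without the rat at 104 Mafa passed (−1.29, adjusted p = 0.0192), and without Sham replicate 24 it passed too (−1.03, adjusted p = 0.0199). In bulk libraries fewer beta cells and less RNA per beta cell cannot be told apart. Against the granule genes, 5 of the factors remained lower (Pax6, Nkx2-2, Myt1, Nkx6-1 and Rfx6), while in the acinar covariate fit 3 remained lower (Isl1, Nkx2-2 and Nkx6-1).

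Genes of glucose sensing and insulin secretion fell with them. Of 30 tested, 26 fell and none rose (median −0.87), and in 26 the groups did not overlap. Slc2a2, the GLUT2 transporter through which rodent beta cells take up glucose, was at 909, 901 and 967 CPM in near-normal Px and at 1751, 1701, 1711, 1778 and 2100 CPM in Sham (log2 fold change −0.97 ± 0.18, adjusted p = 0.00104). The 3 near-normal rats were close to each other, and all 3 lay below every Sham rat. Ffar1, a fatty acid receptor that amplifies secretion, was at 30.5, 28.1 and 30.3 CPM against 66.2, 60.1, 65.3, 69.6 and 72.3 CPM (−1.17 ± 0.10, adjusted p = 7.81e-06). Glp1r, the receptor of the incretin GLP-1, was at 99.4, 84.5 and 82.8 CPM against 231, 207, 227, 220.3 and 252 CPM (−1.35 ± 0.12, adjusted p = 9.39e-06). Ucn3, a peptide of mature beta cells that acts on delta cells, was at 104, 102 and 91.8 CPM against 216, 249.6, 295, 309 and 265 CPM (−1.43 ± 0.14, adjusted p = 2.11e-05). Each of these receptors and the peptide lay at a lower level in all 3 near-normal rats than in any Sham rat. Pcsk1, the convertase that cuts proinsulin, also fell (−0.84 ± 0.16, adjusted p = 0.00149). The members that did not pass were Gipr, Chgb, Ptprn and Ero1b. Against the granule genes 11 members were lower and Chgb, Ptprn and Ero1b were higher, while Slc2a2 (−0.39, adjusted p = 0.0616) and Pcsk1 (−0.25, adjusted p = 0.151) did not pass. Chga, Chgb, Scg2, Cpe and Pcsk2 belong both to this list and to that reference. Their results against the granule genes are thus partly set by the choice of reference. With the acinar score as a covariate 17 members were lower.

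**Figure D3:**
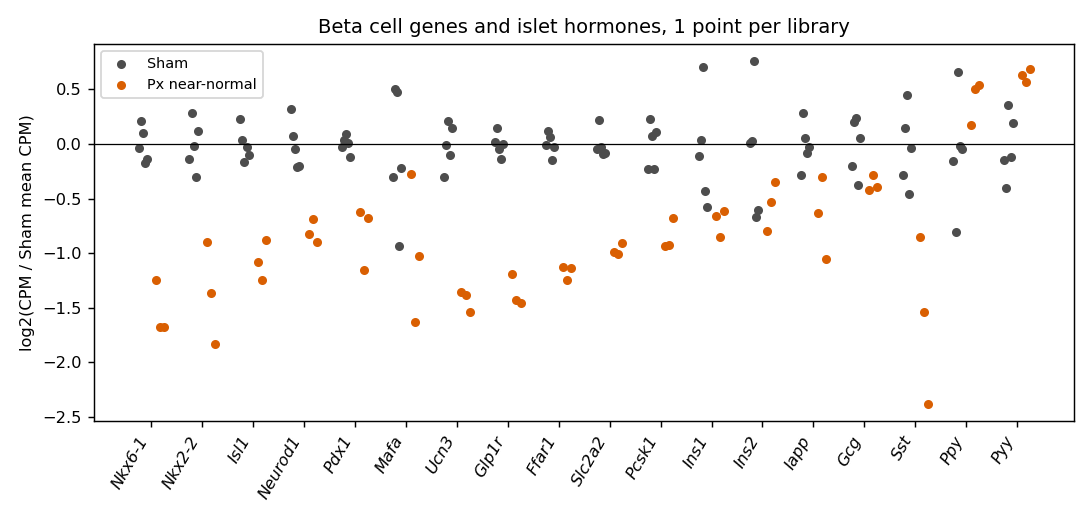
Levels of beta cell genes and islet hormones as log2 of each library's CPM over the Sham mean (vertical axis, 0 is the Sham mean), 1 point per rat in the near-normal Px and Sham groups. For Nkx6-1 (71.7 to 97.0 CPM against 203 to 265 CPM) and Glp1r the groups are separate, whereas for Mafa, Ins2 and Ppy they overlap.

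The insulin genes themselves did not pass the test on the TMM scale. Ins1 was at 52130, 45800 and 54040 CPM in near-normal Px and at 76580, 61260, 55230, 134700 and 84440 CPM in Sham, where replicate 26 was the highest library (log2 fold change −0.70 ± 0.54, adjusted p = 0.292). Every near-normal rat nonetheless lay below every Sham rat for Ins1. Ins2 was at 12380, 14860 and 16830 CPM against 21540, 13530, 14060, 36280 and 21830 CPM, with overlap between the groups (−0.55 ± 0.44, adjusted p = 0.312). DESeq2 called Ins1 lower (−0.69, adjusted p = 0.0133), and scaling by totals called both lower (Ins1 −1.44, adjusted p = 0.00704, Ins2 −1.26, adjusted p = 0.0125). The promoters of these genes hold the sites through which the factors above act, and are shown as the 250 bases before each gene's start, from RefSeq on the GRCr8 build. Capitals mark the E box letters GCCATCTG, to which Neurod1 dimers are known to bind, and the homeodomain core TAAT, shared by sites of Pdx1 and its relatives, on either strand.
Ins1, chr1:261185869-261186118, plus strand: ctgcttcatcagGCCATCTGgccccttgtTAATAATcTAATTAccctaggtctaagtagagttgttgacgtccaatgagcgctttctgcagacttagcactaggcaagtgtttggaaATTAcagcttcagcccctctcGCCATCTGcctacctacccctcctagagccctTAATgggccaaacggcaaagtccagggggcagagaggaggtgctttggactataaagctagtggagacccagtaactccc
Ins2, chr1:207273806-207274055, minus strand: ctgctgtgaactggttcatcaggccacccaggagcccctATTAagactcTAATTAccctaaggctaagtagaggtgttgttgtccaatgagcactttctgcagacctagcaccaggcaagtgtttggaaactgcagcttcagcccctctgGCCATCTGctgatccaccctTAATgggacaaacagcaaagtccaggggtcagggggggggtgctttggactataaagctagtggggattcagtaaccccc
The Ins1 window held 2 E boxes and 6 TAAT cores, and the Ins2 window 1 and 4, with overlapping cores counted separately. Among 33469 promoter windows of the same length, 0.998% held the E box and 57.0% held TAAT. A match of letters is a description and not evidence of binding in these rats.

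Among the other hormones, Sst, the somatostatin of delta cells, was at 416, 258 and 144 CPM in near-normal Px and at 616, 544, 731, 1022 and 831 CPM in Sham. All 3 near-normal rats were below all Sham rats, and the rat at 132 was the lowest (log2 fold change −1.46 ± 0.33, adjusted p = 0.00385). Ghrl, the ghrelin gene of a rare islet cell, also fell (−1.55 ± 0.39, adjusted p = 0.00667), at levels of 0.143, 0.472 and 0.575 CPM against 1.22, 1.32, 1.19, 1.03 and 1.26 CPM. Pyy, peptide YY, was the member that rose, at 15.5, 14.8 and 16.1 CPM against 9.04, 9.21, 11.4, 12.8 and 7.53 CPM (0.63 ± 0.17, adjusted p = 0.0085). Its direction turned with scaling by totals (−0.11, adjusted p = 0.735). Gcg, glucagon, was at 5582, 6104 and 5657 CPM against 6470, 5735, 7748, 8783 and 8548 CPM (−0.37 ± 0.28, adjusted p = 0.287), Iapp, the amyloid peptide released with insulin, gave −0.63 ± 0.34, adjusted p = 0.141, and Ppy, pancreatic polypeptide, gave 0.41 ± 0.27, adjusted p = 0.223. Of 8 hormones, 1 rose, 2 fell and 5 did not pass (median −0.59). These counts are near or below the shares of all genes tested, 28.2% higher and 26% lower. For Iapp every near-normal rat lay below every Sham rat. DESeq2 called Iapp (adjusted p = 0.00166) and Gcg (adjusted p = 0.0353) lower, as did scaling by totals (adjusted p = 0.000777 and 0.00497). Iapp was also lower with limma voom (adjusted p = 0.0149), and Ppy passed as higher without Sham replicate 26 (0.64, adjusted p = 0.0354). In the acinar covariate fit none of the 8 passed (Sst −1.95, adjusted p = 0.0634, Ghrl −1.31, adjusted p = 0.224, Pyy 0.47, adjusted p = 0.365). Ghrl also did not pass against the granule genes (−0.98, adjusted p = 0.0756) or in the fit of all 15 libraries (−1.56, adjusted p = 0.0517).

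Markers of alpha, delta and PP cells went both ways. Of 10 tested, 2 rose and 5 fell (median −0.49, and 0.11 against the granule genes). Slc7a2, an arginine transporter of alpha cells, was at 255, 227 and 245 CPM against 609, 513, 546, 542 and 717 CPM (log2 fold change −1.27 ± 0.15, adjusted p = 6.79e-05). Sstr3, a somatostatin receptor, fell by 1.07 ± 0.18 (adjusted p = 0.00062), and Irx1 and Rbp4 were among the others that fell. Hhex, the delta cell factor, rose slightly, from 5.71, 6.83, 6.19, 6.69 and 6.67 CPM in Sham to 9.21, 10.5 and 9.66 CPM (0.61 ± 0.13, adjusted p = 0.00236), and turned with scaling by totals (−0.17, adjusted p = 0.625). The other riser was Ttr, transthyretin, at 3.15, 1.01 and 1.06 CPM against 0.159, 0.354, 0.57, 0.58 and 0.402 CPM (2.04 ± 0.48, adjusted p = 0.0046). The count of lower markers was 3 without the rat at 132 and 3 without the rat at 119. Against the granule genes 3 markers were higher and 2 lower, and scaling by totals gave 1 and 7. The acinar covariate fit left none higher and 2 lower, with Hhex (0.51, adjusted p = 0.237) and Ttr (0.66, adjusted p = 0.681) not passing.

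Disallowed genes, which beta cells keep low, were higher. Of 22 tested, 21 rose, none fell, and Cat, catalase, did not pass (median 2.45), and in 20 the groups did not overlap. Ldha, lactate dehydrogenase, was at 53, 25.9 and 31.3 CPM in near-normal Px and at 2.69, 4.10, 4.56, 4.19 and 2.76 CPM in Sham (log2 fold change 3.32 ± 0.25, adjusted p = 4.62e-06). Slc16a1, a transporter of lactate and pyruvate, was at 9.06, 6.95 and 7.12 CPM against 0.581, 1.37, 1.45, 1.07 and 1.09 CPM (2.78 ± 0.26, adjusted p = 1.28e-05). Hk1, the high-affinity hexokinase, was at 56, 68 and 41.8 CPM against 8.03, 12.1, 13.8, 12.8 and 10.3 CPM (2.27 ± 0.19, adjusted p = 7.83e-06). In each of these genes the lowest near-normal rat was above the highest Sham rat. Zfp36l1, an RNA-binding protein that shortens the life of messages (2.38 ± 0.13, adjusted p = 1.61e-06), and Ndrg2 (2.36 ± 0.14, adjusted p = 1.76e-06) rose by like amounts. These genes are expressed in most other cell types by definition, and the markers of acinar, macrophage and fibroblast cells rose in the same libraries. The part of acinar, macrophage and fibroblast cells in the rise was not tested. In the acinar covariate fit 18 of the 22 stayed higher, but that fit cannot separate acinar share from surgery, which go together in these groups.

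Glycolysis genes shifted in composition. Of 15 tested, 8 rose and 2 fell (median 0.48, and −0.26 with scaling by totals). Hk2, a hexokinase induced in growing and inflamed cells, was at 43.6, 16.9 and 13.4 CPM against 0.423, 1.11, 1.75, 0.803 and 0.977 CPM (log2 fold change 4.58 ± 0.44, adjusted p = 1.79e-05). Pfkfb3, which makes the activator of phosphofructokinase, was at 14.3, 11.7 and 8.03 CPM against 1.85, 2.23, 1.67, 2.10 and 2.30 CPM (2.48 ± 0.21, adjusted p = 7.82e-06). Both were higher in every near-normal rat. Pfkm, a phosphofructokinase subunit, went the other way, at 85.1, 80 and 62.9 CPM against 120.2, 119, 153, 157 and 157 CPM (−0.90 ± 0.15, adjusted p = 0.000605), as did Pkm, pyruvate kinase (−0.67 ± 0.17, adjusted p = 0.00641). Pkm did not pass with the acinar score as a covariate (−0.93, adjusted p = 0.0615) or against the granule genes (−0.082, adjusted p = 0.568). The list had 4 higher and 5 lower genes with scaling by totals, 13 and 1 against the granule genes, and 4 and 1 in the acinar covariate fit.

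Of 10 progenitor and dedifferentiation genes tested, 5 rose and 2 fell (median 1.03). Aldh1a3, a retinaldehyde dehydrogenase used as a marker of dedifferentiated beta cells, was at 19.5, 22.9 and 31.3 CPM in near-normal Px and at 1.69, 4.66, 2.06, 2.72 and 2.76 CPM in Sham, with no overlap (log2 fold change 3.15 ± 0.28, adjusted p = 1.05e-05). It was the only riser still higher with the acinar score as a covariate. Myc, a growth regulator, was at 20.4, 28.9 and 9.54 CPM against 1.06, 1.92, 2.72, 1.96 and 1.90 CPM (3.33 ± 0.35, adjusted p = 2.76e-05). Sox9, the factor of duct and progenitor cells, was at 3.24, 5.13 and 5.33 CPM against 0.528, 1.37, 0.57, 0.357 and 0.345 CPM (2.84 ± 0.40, adjusted p = 0.000204). With the covariate, Myc (1.54, adjusted p = 0.0588) and Sox9 (2.68, adjusted p = 0.0558) did not pass. Tnfrsf11b, osteoprotegerin, fell, from 97.2, 98.1, 84.9, 89.8 and 109 CPM in Sham to 44.4, 37.9 and 36.3 CPM (−1.28 ± 0.12, adjusted p = 1.25e-05). Fev, a factor of endocrine precursors, fell by 0.73 ± 0.27 (adjusted p = 0.0432). Fev did not pass with the covariate (−0.94, adjusted p = 0.247), against the granule genes (−0.12, adjusted p = 0.726), with thinned counts (−0.89, adjusted p = 0.0815) or with no filter on low counts (−0.73, adjusted p = 0.0516), nor when replicate 16 or 2 of near-normal Px or replicate 25, 26 or 27 of Sham was left out (adjusted p 0.0690 to 0.157). Neurog3, the switch gene of endocrine development, was too low to be tested, at 0.143, 0.0675 and 0 CPM against 0, 0.0506, 0.0439, 0.134 and 0 CPM.

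Glucose-responsive genes went both ways. Of 9 tested, 5 rose and 1 fell (median 0.63, and −0.19 with scaling by totals). Txnip, an inhibitor of thioredoxin that glucose induces in beta cells, was at 252, 1112 and 247 CPM in near-normal Px and at 62.7, 155, 112, 99.1 and 98.5 CPM in Sham. All 3 near-normal rats were above all Sham rats, and the rat at 119 was far above the other 2 (log2 fold change 2.35 ± 0.47, adjusted p = 0.00176). Pklr, liver-type pyruvate kinase and a target of the glucose-sensing factor ChREBP, was the member that fell, at 41.3, 51.8 and 61.3 CPM against 115, 97.8, 73.2, 91.2 and 66.5 CPM (−0.78 ± 0.19, adjusted p = 0.00582). With the acinar score as a covariate none passed, and Txnip gave 0.68, adjusted p = 0.665. Pklr did not pass against the granule genes (−0.24, adjusted p = 0.461). Scaling by totals gave 2 higher and 3 lower genes, and without the rat at 119, 3 were lower in place of 1. The Pklr promoter is shown because ChREBP acts there, with capitals marking the letters of a carbohydrate response element, CACGNG and CNCGNG with 5 bases between them, searched on both strands of the same window in RefSeq on GRCr8.
Pklr, chr2:176841014-176841263, plus strand: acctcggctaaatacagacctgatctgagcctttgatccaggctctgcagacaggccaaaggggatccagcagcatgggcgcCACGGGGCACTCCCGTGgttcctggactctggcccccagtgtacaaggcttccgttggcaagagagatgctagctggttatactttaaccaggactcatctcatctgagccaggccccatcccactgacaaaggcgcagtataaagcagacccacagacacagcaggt
The window held 1 such match, and 0.266% of the 33469 windows held any.

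The 10 largest falls by fold, among genes with a mean of at least 5 CPM in a group and no overlap between the groups, all exceeded 2 on the log2 scale. Cplx2, complexin 2, a regulator of vesicle fusion, was at 64.3, 42 and 43.9 CPM in near-normal Px and at 221, 175, 244, 229.5 and 287 CPM in Sham (log2 fold change −2.21 ± 0.20, adjusted p = 1.22e-05). Cabp7, a calcium-binding protein, was at 13.4, 8.57 and 7.09 CPM against 52.4, 46, 49, 52.3 and 55.1 CPM (−2.40 ± 0.20, adjusted p = 7.04e-06). Nell1, a secreted growth factor, was at 12.9, 8.44 and 11.9 CPM against 55.2, 46.5, 63.2, 55.7 and 67.7 CPM (−2.37 ± 0.18, adjusted p = 3.97e-06). The 3 near-normal rats were below all Sham rats for all 10, which the choice of the genes required. Grik3, a kainate receptor subunit, fell the most (−2.99 ± 0.27, adjusted p = 1.14e-05). Syt12, a synaptotagmin (−2.27 ± 0.14, adjusted p = 1.76e-06), Cntn3, a contactin (−2.22 ± 0.15, adjusted p = 2.79e-06), and Dscam, an adhesion molecule of neurons (−2.22 ± 0.22, adjusted p = 2.05e-05), fell as well. Rasgef1c (−2.38 ± 0.19, adjusted p = 5.68e-06), Arc, an immediate early gene of synapses (−2.23 ± 0.47, adjusted p = 0.0024), and Olfm4, an epithelial secreted protein (−2.20 ± 0.49, adjusted p = 0.0033), made up the rest. In the acinar covariate fit Olfm4 did not pass (−0.86, adjusted p = 0.424).

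The 10 largest rises chosen in the same way were larger than the falls, and 7 of them are described. Mmp12, the macrophage elastase, was at 355, 101 and 109 CPM in near-normal Px and at 0.37, 0.962, 0.395, 1.11 and 1.90 CPM in Sham (log2 fold change 7.66 ± 0.55, adjusted p = 3.61e-06). Mmp9, gelatinase B, was at 145, 24.3 and 9.96 CPM against 0.106, 0, 0.219, 0.178 and 0.172 CPM (8.70 ± 0.99, adjusted p = 4.87e-05). Ocstamp, a fusion protein of multinucleated macrophages and osteoclasts, was at 18.8, 2.83 and 3.33 CPM and had 0 counts in all 5 Sham libraries. Its mean of 8.30 CPM was at least 280-fold higher than the floor of 3 counts over the Sham group (0.0296 CPM). The rat at 104 was the highest of the 3 for each of these genes. Fcgr2b, an inhibitory antibody receptor (6.58 ± 0.61, adjusted p = 1.37e-05), Ccl9, a chemokine (6.59 ± 0.73, adjusted p = 4.01e-05), Lipo1, a lipase (7.08 ± 0.66, adjusted p = 1.4e-05), and Col6a5, a collagen chain (6.74 ± 1.22, adjusted p = 0.000984), rose too. For Col6a5 the rise was carried by the rat at 104, with 57.5, 2.50 and 1.57 CPM, and limma voom did not call it (4.89, adjusted p = 0.0816). With the acinar score as a covariate 4 of the 7 did not pass: Mmp9 (4.03, adjusted p = 0.181), Ccl9 (3.51, adjusted p = 0.142), Ocstamp (7.34, adjusted p = 0.109) and Col6a5 (2.69, adjusted p = 0.625).

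**Figure D4:**
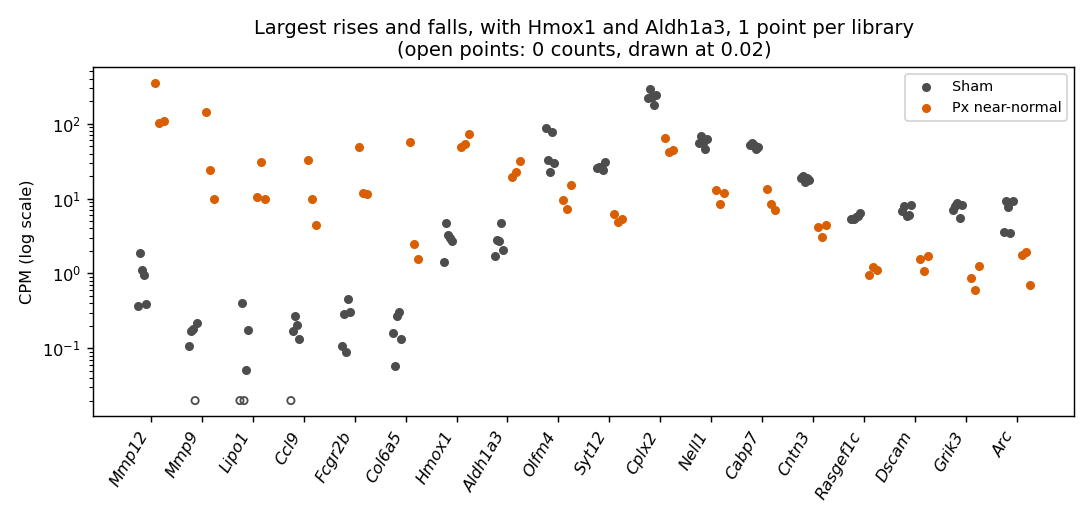
CPM (log axis) of genes with the largest rises and falls, with Hmox1 and Aldh1a3, 1 point per rat in the near-normal Px and Sham groups; open points are libraries with 0 counts. Mmp12 stands at 101 to 355 CPM in near-normal Px against 0.37 to 1.90 CPM in Sham, and Cplx2 at 42.0 to 64.3 CPM against 175 to 287 CPM.

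Acinar genes rose nearly throughout: 27 of 28 tested, none fell (median 3.61), and in 24 the groups did not overlap. Cpa1, carboxypeptidase A1, was at 20910, 29640 and 8607 CPM in near-normal Px and at 259.5, 1374, 4828, 781 and 919.8 CPM in Sham, where replicate 25 was the highest (log2 fold change 3.60 ± 0.80, adjusted p = 0.00339). Ctrb1, chymotrypsinogen B1, was at 103400, 110400 and 42590 CPM against 601, 1958, 7590, 1497 and 1782 CPM (4.99 ± 0.81, adjusted p = 0.000495). Rbpjl, an acinar transcription factor, was at 87.8, 100.2 and 63.2 CPM against 2.01, 13.8, 12.6, 2.54 and 2.64 CPM (3.62 ± 0.58, adjusted p = 0.000452). The Sham ranges for these genes spanned several fold, with none reaching the lowest near-normal rat. The 4 Reg lectins tested, secreted proteins of injured and regenerating pancreas, all rose (median 4.56). Reg1a was at 4335, 7072 and 3738 CPM against 20.8, 388, 151, 48.8 and 56.3 CPM (5.25 ± 0.83, adjusted p = 0.000406), and Reg3b at 708, 2074 and 2164 CPM against 1.11, 254, 31, 35 and 6.72 CPM (4.65 ± 1.23, adjusted p = 0.00852). In the acinar covariate fit, whose score is built from the acinar genes, none of the 4 lectins passed and 2 acinar genes were higher.

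Of 13 duct markers, 8 rose and none fell (median 0.76). Spp1, osteopontin, which macrophages also make, was at 198, 183 and 172 CPM against 2.33, 16.4, 4.04, 2.99 and 7.53 CPM (log2 fold change 4.79 ± 0.52, adjusted p = 3.52e-05). Anxa3, an annexin, was at 35.1, 27.9 and 37.2 CPM against 3.59, 5.67, 3.82, 5.49 and 4.20 CPM (2.87 ± 0.17, adjusted p = 1.82e-06). Krt19, a keratin of duct cells, rose less, at 15.7, 23 and 35 CPM against 5.60, 8.35, 8.78, 12.4 and 9.20 CPM (1.47 ± 0.27, adjusted p = 0.00106), and did not pass with the covariate (1.64, adjusted p = 0.0668). Epcam, Krt7, Cldn7 and Cldn4 were among those that did not pass. With scaling by totals 6 duct markers were higher and 3 lower, and in the acinar covariate fit 3 were higher.

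Macrophage genes were uniformly higher, with 16 of 16 rising and no overlap in any (median 3.99). Their summed level was 2372, 1081 and 1141 CPM in the near-normal rats and 35.3 to 79.3 CPM in Sham. Cd68, a lysosomal protein of macrophages, was at 61.5, 26.9 and 23.7 CPM against 0.793, 1.97, 1.71, 1.43 and 0.632 CPM (log2 fold change 4.81 ± 0.39, adjusted p = 6.41e-06). Adgre1, the F4/80 antigen, was at 21.7, 15.3 and 17.1 CPM against 0.898, 1.52, 1.32, 0.936 and 0.977 CPM (3.99 ± 0.20, adjusted p = 1.59e-06), and Laptm5, a lysosomal protein of leukocytes, gave 4.48 ± 0.28, adjusted p = 1.97e-06. Ptprc, the CD45 antigen of all leukocytes, was at 45.7, 25 and 32.8 CPM against 1.85, 2.58, 1.62, 1.52 and 1.26 CPM (4.28 ± 0.24, adjusted p = 1.68e-06). The rat at 104 was highest for all 4. With the acinar score as a covariate 15 of the 16 stayed higher. All 5 lymphocyte markers tested rose (median 3.17). Il7r, the interleukin 7 receptor (5.36 ± 0.46, adjusted p = 9.26e-06), rose from 0, 0.354, 0.132, 0.134 and 0.172 CPM to 8.87, 4.59 and 6.69 CPM, and Cd4, which rat macrophages also carry (2.85 ± 0.24, adjusted p = 8.53e-06), rose as well. With the acinar covariate 3 lymphocyte markers were higher. The B cell markers Cd79b and Ms4a1 and the T cell gene Cd3d were too low to be tested.

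Antigen presentation and interferon genes rose in 18 of 20 (median 1.89), with none lower. RT1-Da, a class II histocompatibility chain, was at 568, 368 and 402 CPM in near-normal Px and at 24.1, 29.5, 29, 36.2 and 33.4 CPM in Sham (log2 fold change 3.87 ± 0.18, adjusted p = 1.59e-06). RT1-Ba, another class II chain, gave 4.18 ± 0.22, adjusted p = 1.61e-06. Of 10 inflammatory genes, 9 rose and 1 fell (median 3.57). Ccl2, the monocyte-attracting chemokine, was at 17.4, 12.6 and 8.03 CPM against 0.211, 0.658, 0.658, 0.446 and 0.517 CPM (4.64 ± 0.33, adjusted p = 3.25e-06), and Icam1, a leukocyte adhesion molecule, gave 3.64 ± 0.26, adjusted p = 3.33e-06. Il1r1, the interleukin 1 receptor that beta cells carry at a high level, fell, from 466, 514, 486, 409.6 and 538 CPM to 307, 349 and 283 CPM (−0.63 ± 0.14, adjusted p = 0.00353). Against the granule genes Il1r1 did not pass (−0.072, adjusted p = 0.731). In the acinar covariate fit 13 antigen presentation genes and 5 inflammatory genes were higher. Il6, Tnf and Nos2 had 0 counts in all Sham libraries and were too low to be tested. Macrophages also express antigen presentation genes, and the part of macrophage content here was not tested.

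Fibroblast and matrix genes rose in 18 of 18 with no overlap in any (median 3.70). Their summed level was 5268 to 9270 CPM in near-normal Px and 521 to 971 CPM in Sham. Col1a1, a chain of type I collagen, was at 1003, 704 and 1656 CPM against 13.3, 74.9, 23.9, 36.3 and 31.7 CPM (log2 fold change 4.96 ± 0.50, adjusted p = 2.18e-05). Dcn, decorin, was at 142, 164 and 179 CPM against 14.7, 22.5, 12.9, 14.8 and 16.8 CPM (3.30 ± 0.17, adjusted p = 1.59e-06), and Tagln, a marker of contractile cells, gave 3.90 ± 0.23, adjusted p = 1.76e-06. The rat at 132 was highest for these 3 genes, whereas the rat at 104 had the highest summed macrophage level. In the acinar covariate fit 16 stayed higher. Of 10 endothelial markers, 7 rose and none fell (median 0.91). Tek, the TIE2 receptor, was at 50.1, 60.2 and 57.8 CPM against 19.3, 25.4, 25.8, 28.1 and 27.5 CPM (1.15 ± 0.13, adjusted p = 4.59e-05), and Cdh5, VE-cadherin, gave 1.26 ± 0.14, adjusted p = 4.1e-05. Kdr, Plvap and Flt1 did not pass, and with scaling by totals 1 endothelial marker was higher and 1 lower, while Tek (0.40, adjusted p = 0.166) and Cdh5 (0.50, adjusted p = 0.0875) did not pass.

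Stress pathways differed among themselves. Of 18 unfolded protein response genes, 5 rose and 2 fell, near the share of all genes that were higher (median 0.16, and −0.67 with scaling by totals). Hspa5, the endoplasmic reticulum chaperone BiP, was at 1707, 1579 and 1209 CPM in near-normal Px and at 1556, 1450, 2305, 2085 and 2415 CPM in Sham (log2 fold change −0.39 ± 0.24, adjusted p = 0.199). Ddit3, the CHOP factor of stress-induced death, was at 6.44, 4.86 and 6.96 CPM against 6.66, 6.63, 7.28, 7.13 and 4.89 CPM (−0.092 ± 0.18, adjusted p = 0.687). Neither passed on the TMM scale, where the groups overlapped for both, but with scaling by totals both were lower (Hspa5 −1.20, adjusted p = 0.00115, Ddit3 −0.82, adjusted p = 0.0426). Atf3, a stress factor also induced by inflammation, was at 36.8, 23.9 and 15.4 CPM against 1.06, 3.34, 2.15, 1.87 and 1.84 CPM (3.62 ± 0.33, adjusted p = 1.29e-05). Dnajb9, a co-chaperone (−0.81 ± 0.15, adjusted p = 0.000923), and Ern1, the sensor IRE1 (−0.94 ± 0.14, adjusted p = 0.00024), fell. Scaling by totals gave 1 higher and 12 lower genes, the granule genes as reference 14 higher and 1 lower, and the acinar covariate fit 1 higher and 2 lower. Against the granule genes Dnajb9 did not pass (−0.25, adjusted p = 0.181). The count of higher genes on the TMM scale was 8 without the rat at 132, 2 without the rat at 104 and 2 without the rat at 119.

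Of 14 antioxidant genes, 9 rose and 1 fell (median 0.74, and −0.0065 with scaling by totals). Hmox1, heme oxygenase 1, which macrophages also express, was at 48.9, 52.8 and 73.7 CPM against 1.43, 2.94, 2.72, 3.25 and 4.66 CPM (log2 fold change 4.29 ± 0.27, adjusted p = 2.1e-06). Gpx1, glutathione peroxidase 1, was at 104, 68.9 and 66.3 CPM against 8.67, 10.4, 12.9, 14.8 and 9.94 CPM (2.81 ± 0.20, adjusted p = 3.1e-06). Gclm, a subunit of the enzyme that starts glutathione synthesis, was the member that fell (−0.82 ± 0.10, adjusted p = 6.8e-05), and it did not pass against the granule genes (−0.26, adjusted p = 0.131). The antioxidant list had 5 higher and 4 lower genes with scaling by totals and 4 and 1 in the acinar covariate fit. Of 17 nuclear genes of the respiratory chain, 7 rose and 1 fell (median 0.34, and −0.44 with scaling by totals). Sdha, a subunit of complex II, gave 0.59 ± 0.11, adjusted p = 0.000975 and turned with scaling by totals (−0.20, adjusted p = 0.418). Ndufs1, a subunit of complex I, fell by 0.38 ± 0.13 (adjusted p = 0.0277). Scaling by totals left no respiratory gene higher and 6 lower, the granule genes as reference gave 16 higher and none lower, and the acinar covariate fit gave none higher and 1 lower, with Sdha not passing (0.36, adjusted p = 0.278). Ndufs1 turned against the granule genes (0.19, adjusted p = 0.143), did not pass with thinned counts (−0.31, adjusted p = 0.08) and did not pass without replicate 14 or 2 of near-normal Px or replicate 25 or 27 of Sham (adjusted p 0.0580 to 0.106).

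Hypoxia response genes did not rise in any of 9 tested, and 4 fell (median −0.23), but the list turned to a median of 0.32 with 4 higher and none lower against the granule genes. Vegfa, the vascular growth factor that beta cells secrete, was at 146, 141 and 186 CPM in near-normal Px and at 434, 405, 277, 244 and 313 CPM in Sham (log2 fold change −1.08 ± 0.21, adjusted p = 0.00143). Bnip3, a mitochondrial protein of mitophagy, was at 33, 28.7 and 29.5 CPM against 52.9, 46.9, 53.8, 48.5 and 55.1 CPM (−0.76 ± 0.10, adjusted p = 0.000134). The groups did not overlap for either gene. Vegfa did not pass with the acinar score as a covariate (−0.52, adjusted p = 0.305) or against the granule genes (−0.55, adjusted p = 0.126), and Bnip3 did not pass against the granule genes (−0.19, adjusted p = 0.285). Of the hypoxia genes 2 were lower in the acinar covariate fit. Leaving out any 1 of the 3 near-normal rats gave 1 higher member.

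Cell cycle genes rose in 14 of 18, and Ccnd2 fell (median 1.27). Mki67, the Ki-67 antigen of dividing cells, was at 17, 16.6 and 29.2 CPM in near-normal Px and at 5.18, 7.74, 5.40, 5.71 and 8.05 CPM in Sham (log2 fold change 1.71 ± 0.22, adjusted p = 0.000114). Cdk1, the kinase that starts mitosis, was at 15.9, 18.3 and 26.7 CPM against 4.65, 7.59, 6.58, 6.87 and 7.30 CPM (1.63 ± 0.20, adjusted p = 7.49e-05). The rat at 132 was the highest for both. Ccnd2, the cyclin D2 that beta cells rely on for division, was at 179.9, 168 and 141 CPM against 269, 265, 344, 327 and 387 CPM (−0.97 ± 0.16, adjusted p = 0.000571). With scaling by totals 6 cell cycle genes were higher and 2 lower, and in the acinar covariate fit 8 were higher and 1 lower. Which cells divided cannot be told from bulk RNA. Of 12 immediate early genes, 9 rose and 1 fell (median 1.16). Jun, a stress-induced transcription factor, gave 2.22 ± 0.13, adjusted p = 1.76e-06, and Egr2, another, was at 12.4, 2.97 and 3.54 CPM against 0.159, 0.456, 0.263, 0.268 and 0.115 CPM (4.60 ± 0.55, adjusted p = 6.46e-05). Nr4a1, an orphan nuclear receptor that glucose and calcium induce in beta cells, fell, at 44.4, 20.2 and 20.7 CPM against 52, 51.9, 74.5, 103 and 108 CPM (−1.45 ± 0.34, adjusted p = 0.00457). With the covariate Egr2 (3.32, adjusted p = 0.0897) and Nr4a1 (−1.83, adjusted p = 0.0891) did not pass, and 3 immediate early genes were higher. Scaling by totals gave 4 higher and 2 lower, and without the rat at 119, 2 immediate early genes were lower in place of 1.

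The boundary of the near-normal class at 140 lies between the rats at 132 and 152. The acinar share was 27.8% in the rat at 132 and 22.4% in the rat at 152, Nkx6-1 was 71.7 and 77.2 CPM, Aldh1a3 was 31.3 and 34.1 CPM, and Txnip was 247 and 575 CPM. At the lower edge, the Sham rat at 96 and the near-normal rat at 104 had acinar shares of 16.3 and 46.1%, with Nkx6-1 at 209.6 and 97.0 CPM. These neighbours are given as a description.

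In the fit of all 15 libraries, of 15661 genes tested none was higher and none lower in the 4 mildly raised rats than in the near-normal rats at an adjusted p under 0.05 (edgeR). At an unadjusted p under 0.05 there were 834 genes, and the smallest adjusted p was 0.827. DESeq2 called none (smallest adjusted p 0.143). Leaving out the rat at 132 gave 2 lower genes. A p that misses the threshold does not show that these groups are alike.

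Against the 3 rats with severe hyperglycemia, 140 genes (0.894%) were higher and 33 (0.211%) lower in severe than in near-normal Px. Of the 8 genes of the islet hormone list, Sst alone passed. It was at 416, 258 and 144 CPM in near-normal Px and at 890.1, 994 and 783 CPM in severe Px (replicates 13, 15 and 19; log2 fold change 1.71 ± 0.31, adjusted p = 0.0162). In mildly raised Px it was at 177, 249, 197 and 244 CPM, and the severe rats overlapped the Sham range given above. Cartpt, the CART peptide of islet endocrine cells and nerves, was at 50.4, 57.9 and 29.4 CPM in near-normal Px and at 265, 191 and 353 CPM in severe Px (log2 fold change 2.56 ± 0.41, adjusted p = 0.00826), against 8.35, 5.52, 8.99, 11.9 and 11.7 CPM in Sham. Ppcdc, an enzyme of coenzyme A synthesis, was at 2.19, 5.80 and 2.67 CPM and 13.4, 60.1 and 23.2 CPM (log2 fold change 3.22 ± 0.46, adjusted p = 0.00363). Between near-normal Px and Sham, Ppcdc did not pass (0.32 ± 0.30, adjusted p = 0.395). Pfkfb3 was at 38.9, 27.4 and 42.5 CPM in severe Px (log2 fold change 1.68 ± 0.31, adjusted p = 0.0164). Slit1, an axon guidance protein, was at 35.5, 31.7 and 33 CPM and 11.2, 17.5 and 9.51 CPM (log2 fold change −1.39 ± 0.20, adjusted p = 0.00412), and Plxdc1, a membrane receptor, at 14.8, 13.2 and 14.7 CPM and 6.23, 5.83 and 6 CPM (log2 fold change −1.24 ± 0.14, adjusted p = 0.00144). Both had also been lower in near-normal Px than in Sham (Slit1 −1.35 ± 0.15, adjusted p = 4.48e-05, Plxdc1 −1.04 ± 0.13, adjusted p = 0.000104), a comparison that uses the same near-normal libraries. Trh, thyrotropin-releasing hormone, fell (log2 fold change −2.33 ± 0.53, adjusted p = 0.0476), from 112, 59.7 and 152 CPM to 7.92, 29.3 and 27 CPM, as did Glp1r (log2 fold change −0.66 ± 0.14, adjusted p = 0.0315).

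Between near-normal and severe Px the beta cell factor Nkx6-1 (log2 fold change −0.18 ± 0.17, adjusted p = 0.747), Aldh1a3 (log2 fold change 0.80 ± 0.32, adjusted p = 0.324), Ldha (log2 fold change −0.38 ± 0.41, adjusted p = 0.792) and Txnip (log2 fold change 0.62 ± 0.49, adjusted p = 0.701) did not pass. Single libraries carried part of this comparison. Leaving out 1 library at a time gave 31 to 92 higher and 6 to 20 lower genes, and each of the 6 libraries moved both counts by over 1.5 times. The fewest higher genes were left without the rat at 132 and the fewest lower genes without severe replicate 13. Sst did not pass without the rat at 119 (1.68, adjusted p = 0.0661), the rat at 132 (1.40, adjusted p = 0.0570) or severe replicate 13 (1.71, adjusted p = 0.0560). Cartpt did not pass without the rat at 132 (2.31, adjusted p = 0.0542). Pfkfb3 did not pass without the rats at 119 or 132 or severe replicates 13 or 19 (adjusted p 0.0575 to 0.108), and Trh (0.0539 to 0.220) and Glp1r (0.0754 to 0.149) did not pass whichever of the 6 libraries was left out. Ppcdc, Slit1 and Plxdc1 passed each time. In a fit of these 6 libraries alone, Ppcdc (3.23, adjusted p = 0.0629), Sst (1.71, adjusted p = 0.0801) and Trh (−2.33, adjusted p = 0.0898) did not pass. With scaling by totals Glp1r (−0.88, adjusted p = 0.3), Pfkfb3 (1.535, adjusted p = 0.14) and Trh (−2.62, adjusted p = 0.122) did not pass. Trh also did not pass in the acinar covariate fit (−2.30, adjusted p = 0.0504).

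**Figure D5:**
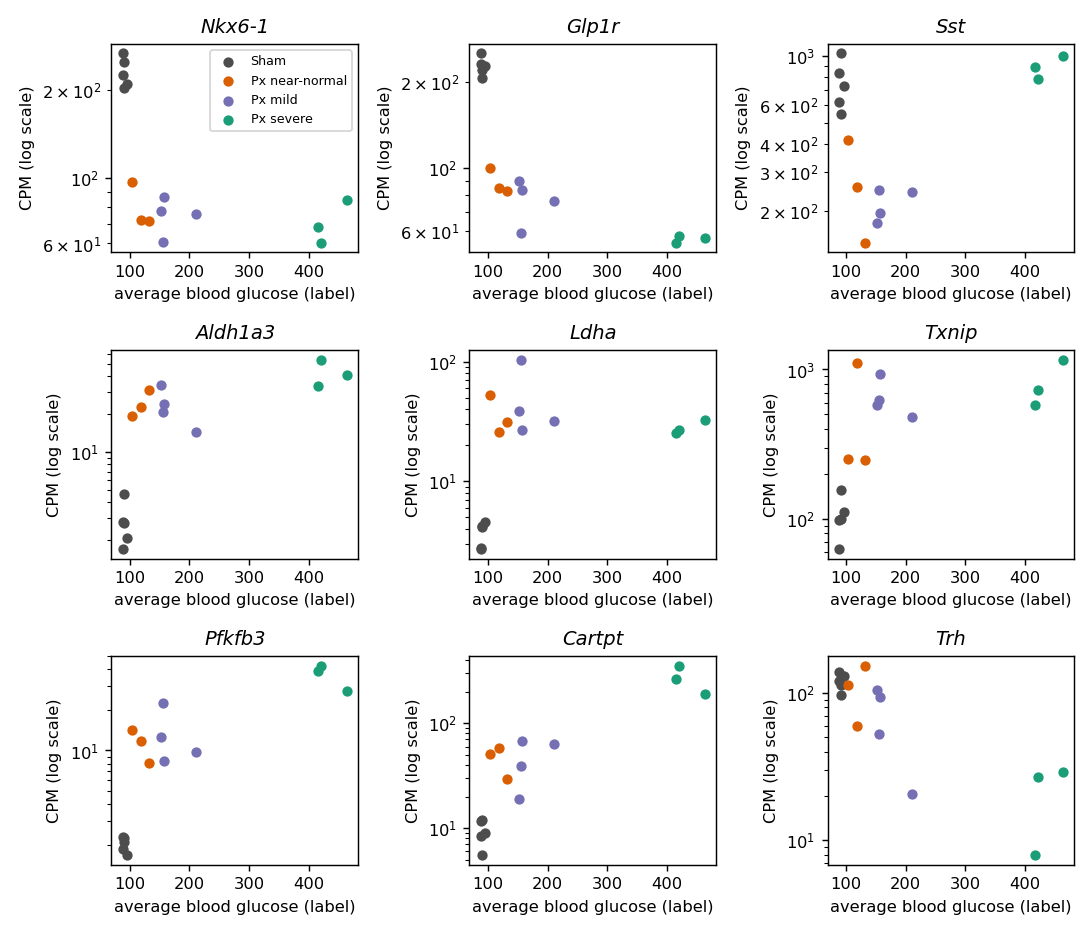
CPM (log axis) of selected genes in each of the 15 rats against the average glucose of its label (no unit given), with the Sham, near-normal, mildly raised and severe groups marked. Nkx6-1 stands at 71.7 to 97.0 CPM in the near-normal rats and 60.2 to 84.5 CPM in the severe rats, while Sst stands at 144 to 416 CPM and 783 to 994 CPM.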

How the data were processed

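The authors deposited raw read counts per gene for 28914 genes in 15 libraries, with the columns of featureCounts output per the file headers. The submitters' processing notes name limma, featureCounts, Subread and FastQC, with no version. The labels' protocols name a miRNeasy extraction and a directional library kit. The sources used here do not give the build, annotation or strand setting, so the positions in the table are not printed, and genes that overlap or have near-identical copies (acinar enzymes, Reg and RT1 genes) are uncertain. The deposited table of the authors' comparisons was not used.

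Libraries were scaled by TMM over all 15 libraries. Near-normal Px (n = 3) was compared with Sham (n = 5) in a fit of those 8 libraries, and mildly raised and severe Px with near-normal Px in 1 fit of 4 groups. Each used the two-sided quasi-likelihood test of edgeR 4.0.16 in R 4.3.3, after filterByExpr (minimum count 10, minimum total count 15), with Benjamini-Hochberg adjustment at 0.05. Alternatives used DESeq2 1.42.0, limma 3.58.1 (voom), other scalings and filters, an acinar score (mean log2 CPM of the acinar list) as a covariate, counts thinned to the smallest library, and leaving out each library. The fits were checked on simulated counts in which a small set of genes changed equally up and down, with no shift in composition. That check does not cover the scaling of libraries as unlike as these. Promoter sequences are RefSeq's, found for 3 of 4 genes looked up.

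The members, the 24 gene lists (366 entries, 353 in the table, 338 tested) and the rules were chosen with earlier results of these data known. Named genes are a fixed panel, up to 2 members per direction of each list by smallest p, and the 10 largest rises and falls (6 for the other comparisons) with a group mean of at least 5 CPM and no overlap; some are left out, and some items are not reported here. Members named only as passing or not passing, and those too low to be tested, were named after their values were seen. Counts limit the precision of low genes, and p-values cover only the spread between these libraries.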

Additional observations from a re-analysis of the deposited data

Results flagged for a closer look

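Of 110 values tested, 8 had 1 Sham rat lying apart from the other 4. Chance alone gives such a gap in about 1 in 20 groups. They are given as values, with no explanation. Cpa1 stood at 4828 CPM in Sham replicate 25 and at 259.5 to 1374 CPM in the others. Ctrb1 stood at 7590 CPM in Sham replicate 25 and at 601 to 1958 CPM in the others. Ddit3 stood at 4.89 CPM in Sham replicate 27 and at 6.63 to 7.28 CPM in the others. Reg3b stood at 254 CPM in Sham replicate 24 and at 1.11 to 35 CPM in the others. RT1-Ba stood at 13.2 CPM in Sham replicate 26 and at 7.40 to 8.10 CPM in the others. Slc2a2 stood at 2100 CPM in Sham replicate 27 and at 1701 to 1778 CPM in the others. Sox9 stood at 1.37 CPM in Sham replicate 24 and at 0.345 to 0.57 CPM in the others. The acinar marker share was 16.3% in Sham replicate 25 and 1.15 to 4.88% in the others.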

How the results depend on the processing

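Depth, surgery and acinar content go together in these groups, and the TMM scale sets every direction. The counts of genes higher and lower against Sham were 4144 and 3819. In the acinar covariate fit they were 1640 and 1171, and they were 7598 and 553 against the granule genes, and 1966 and 7883 with scaling by totals. Some genes that no longer passed in the covariate fit had a larger change there, such as Nr4a1 (−1.83 against −1.45) and Pkm (−0.93 against −0.67). Others had a smaller one, such as Pdx1 (−0.59 against −0.80). Requiring an absolute log2 fold change of 1 left 726 lower genes. Thinning the counts to the smallest library gave 3991 higher and 3264 lower genes, and leaving out 1 library gave 3849 to 4160 higher and 3065 to 3731 lower genes. Over the named genes, 2015 of 2118 values under an alternative kept their direction and their side of the threshold, 79 no longer passed, 18 newly passed and 6 turned. The 6 were Cpa1 (−0.15, adjusted p = 0.741) with the acinar score as a covariate, Hhex (−0.17, adjusted p = 0.625), Pyy (−0.11, adjusted p = 0.735) and Sdha (−0.20, adjusted p = 0.418) with scaling by totals, and Ndufs1 (0.19, adjusted p = 0.143) and Rb1 (0.023, adjusted p = 0.916) against the granule genes. Settings differed in this: leaving out 1 library kept 836 of 848 values. Of 106 named genes tested, 96 passed in the main fit. With the acinar score as a covariate, 28 of these 96 no longer passed and 1 turned. Against the granule genes, 15 no longer passed, 2 newly passed and 2 turned. Over all genes picked by the naming rule, including those left out of the text, 109 passed in the main fit. Of these 109, 71 still passed in the same direction with the covariate and 91 against the granule genes. The cause of these changes was not tested.

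For severe against near-normal Px the counts of 140 higher and 33 lower genes became 267 and 132 with DESeq2, 18 and 4 with scaling by totals, and 89 and 20 with only these groups in the fit. Leaving out 1 library gave 31 to 92 and 6 to 20. For mildly raised against near-normal Px the range was 0 to 0 higher and 0 to 2 lower. With 1 library left out, the acinar share difference ran from 31.2 to 43.4 percentage points and the hormone share difference from −12.3 to −8.90. Such designs cannot reach p under 0.05 in an exact test. No paired analysis was possible because no replicate number in the titles is shared between groups.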

Other observations

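The regulators that stop the cell cycle were mixed. Of 9 tested, 5 were higher and 2 lower in near-normal Px than in Sham (median 0.36, and −0.41 with scaling by totals). Cdkn1c, the p57 inhibitor, was at 4.58, 8.03 and 5.45 CPM in near-normal Px and at 0.317, 0.456, 0.614, 0.669 and 0.345 CPM in Sham (log2 fold change 3.60 ± 0.30, adjusted p = 6.96e-06). It was higher in all 3 near-normal rats than in any Sham rat. Cdkn1b, the p27 inhibitor, fell (−0.61 ± 0.13, adjusted p = 0.00308), and so did Rb1, the retinoblastoma protein (−0.54 ± 0.11, adjusted p = 0.00218), whose direction turned against the granule genes (0.023, adjusted p = 0.916). Cdkn1b did not pass against the granule genes (−0.055, adjusted p = 0.809), and in the acinar covariate fit neither Cdkn1b (−0.57, adjusted p = 0.172) nor Rb1 (−0.58, adjusted p = 0.115) passed. That fit left 2 genes of the list higher and none lower.

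Proteins of the hormone granule, 8 genes that served as a scaling reference, were lower in 6 and higher in none on the TMM scale (median −0.69). Scg2, a granin, had a mean of 1066 ± 51.8 CPM in near-normal Px (SD, n = 3) and 1918 ± 217 CPM in Sham (SD, n = 5; log2 fold change −0.85 ± 0.19, adjusted p = 0.00316). Chgb, chromogranin B, was at 359 ± 16.3 CPM and 354 ± 53.7 CPM (0.018 ± 0.14, adjusted p = 0.925), and Pam, the amidating enzyme, did not pass either (−0.22 ± 0.21, adjusted p = 0.38). Chga (−0.73 ± 0.19, adjusted p = 0.00785), Scg3 (−0.67 ± 0.18, adjusted p = 0.0108) and Scg5 (−0.60 ± 0.16, adjusted p = 0.00926) fell as Scg2 did. Whether the granule genes differ from each other in their change was not tested.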
